A study of Mus musculus with 15 samples.

Results

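Ribosome-bound RNA of mouse kidneys on day 5 after unilateral ureteral obstruction was compared with ribosome-bound RNA of sham-operated kidneys. The comparison takes every array that the labels put in these groups, 3 of the bound fraction of day 5 (arrays 10 to 12) and 3 of the bound fraction of day 0 (arrays 1 to 3), which are 6 of the 15 arrays of the series, and no measured value entered the choice. All mice, controls included, carried Tg:Col1a1-eGFPL10a, a transgene that places a fusion of eGFP and the ribosomal protein L10a behind a collagen1α1 promoter/enhancer element. The strain is given as C57/129sv, the sex as both and the stage as P14 to P300, without a value for single arrays. Day 0 is sham surgery and day 5 is obstruction of 1 ureter, so day and operation change together. The unbound fraction of the same days (arrays 4 to 6 and 13 to 15) served as the background, and the bound fraction of day 2 of obstruction (arrays 7 to 9) as an earlier time. The tag reports any cell in which the collagen element is active, and the labels name the bound material as kidney pericytes, with periarterial fibroblasts of the medulla in brackets. Nothing in them ties an array to an animal or says how many kidneys it pools, so the p-values cover the spread among the deposited samples alone, with a precision limited by the small number of arrays.

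TRAP, translating ribosome affinity purification, isolates tagged ribosomes, and the mRNAs on them, from lysed tissue. Ureteral obstruction blocks the outflow of urine, injures the tubules and leads to fibrosis of the kidney within days. Pericytes and perivascular fibroblasts of the kidney interstitium are known to proliferate and turn into myofibroblasts in this model, which deposit collagen and other matrix. The comparison asks how the messages on tagged ribosomes differ between the sham and the obstructed kidney.

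Levels below are log2 of the quantile-normalized intensity, differences are bound day 5 minus bound day 0 on that log2 scale ± standard error, and a gene passed when its adjusted p in limma was under 0.05. Where a group's mean did not exceed the highest negative control of its arrays, the difference is still the fitted one but the fold is written as "at least", with that group set to at least its negative controls. Each gene was read from its 1 probe set of highest mean, so differences and folds, bounds included, hold for that probe set. The deposited array medians ran from 16.4 to 198.7 intensity units, the lowest on array 11. That array also had the lowest Gapdh 5′ to 3′ signal ratio, 0.0269 against 0.178 to 0.583 on the others. Array 12 was 1 of 4 bright arrays (spiked controls at 12110 to 12900 against 4727 to 5864 units), and no day 0 bound array was bright. The arrays of a group correlated across genes at 0.938 to 0.951 for bound day 0 and 0.931 to 0.961 for bound day 5, against 0.866 to 0.899 between them. The mean of the Y-linked genes Uty, Kdm5d and Eif2s3y was 6.73, 7.04 and 7.17 on the sham arrays and 8.61, 9.21 and 1.93 on the day 5 arrays, while Xist, which females transcribe from the inactive X, read 8.65, 9.84 and 9.06 in sham and 3.96, 2.58 and 10.09 on day 5. The sham arrays carry both signals, and each day 5 array mainly one of them. The bright unbound array 15 of day 5 resembled array 12, with a Y-linked mean of 1.65 and Xist at 8.71, against 9.30 and 9.02, and 1.16 and 2.04, on arrays 13 and 14. With the Y-linked mean as a covariate 2271 genes were higher and 1692 lower, and 3774 of the 3997 calls given below (94.4%) were kept.

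In the sham bound fraction 25 of the 26 pericyte and fibroblast markers lay above the negative controls, the exception being Fap, and their mean was 9.24 to 9.40 on the 3 arrays against 7.84 to 8.15 in the unbound fraction. Pdgfrb, the platelet-derived growth factor receptor of mural cells, read 10.92, 11.53 and 11.59 there. Markers of other cells were also well above the controls: the mean of 10 podocyte markers was 11.22 to 12.30 (7.81 to 8.34 in the unbound fraction), that of 26 proximal tubule markers 9.41 to 10.18 (10.24 to 11.15) and that of 21 endothelial markers 8.89 to 9.78 (9.15 to 9.35). In bulk samples such as these, the number of cells of a type and the RNA per cell cannot be told apart, here and in the lists below. The sham bound fraction held messages of podocytes, epithelial cells of the glomerulus, and of tubules, beside those of the labelled cells, and whether they were on tagged ribosomes was not tested. Macrophage and monocyte markers averaged 6.67 to 7.88, with Itgam and Ms4a7 of 22 at or under the controls. Of 13 lymphocyte markers 8 were at or under the controls in the sham bound arrays, and of 10 neutrophil markers 8 were.

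Of 16839 genes tested, 3997 (23.7%) passed between bound day 5 and bound day 0. In all, 2314 genes (13.7%) rose and 1683 (9.99%) fell, the shares against which counts within the gene lists are to be read. Of the 3997, 80 lay at or under the negative controls on both days. The balance shifted to 2407 higher and 1090 lower when arrays were centred on their medians, a scaling that moved the median difference of all genes from 0.12 to 0.34. Among the genes that rose, 1869 did so 2-fold or more, 882 by 4-fold, 399 by 8-fold and 173 by 16-fold. Among those that fell the numbers were 1385, 578, 183 and 50. The 3 arrays of each day did not overlap in 3985 genes upward (23.7%) and 2820 downward (16.7%). Without the 4 bright arrays 1273 genes were higher and 917 lower, and 2029 of the 3997 calls (50.8%) were kept. The count of genes that rose fell to 1525 without array 3 and 1490 without array 10, and the count of genes that fell to 1118, 957 and 1085 without array 2, 3 or 10.

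**Figure D1:**
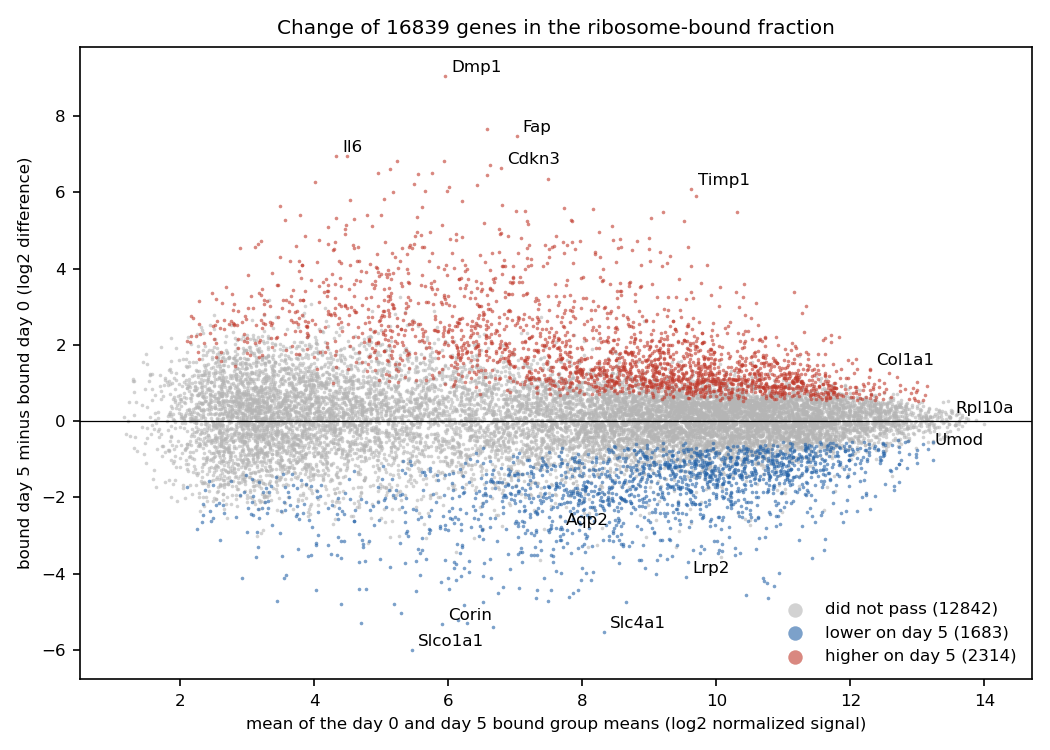
Bound day 5 minus bound day 0 (vertical axis, log2 difference) against the mean level of both groups (horizontal axis, log2 normalized signal) for 16839 genes. Red points rose (2314) and blue points fell (1683) at an adjusted p under 0.05 in limma. Dmp1 is the highest point at 9.06 and Slco1a1 the lowest called at -6.01.

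The 12 largest fitted increases were all of genes whose sham means lay at or under the negative controls, so that their exact differences and their order have no meaning beyond the bounds given as "at least". Among them was Dmp1, which codes for an acidic phosphoprotein of mineralized matrix. It read 0.42, 2.84 and 1.01 on the sham arrays and 9.75, 12.05 and 9.66 on day 5, a difference of 9.06 ± 0.68 (adjusted p = 7.1e-06), or at least 86.8-fold higher. All sham values lie under the negative controls of their arrays, and on day 5 array 11 stands over 2 log2 units above the other 2. Tubb3, the beta-III tubulin, read 2.56, 4.84 and 0.83 in sham and 10.34, 10.77 and 10.08 on day 5 (7.66 ± 0.85, at least 69.9-fold). Fap, a membrane serine protease of activated fibroblasts, went from 4.96, 1.78 and 3.10 to 10.62, 10.77 and 10.88 (7.48 ± 0.69, adjusted p = 3.14e-05, at least 82.5-fold). Its sham arrays scatter over 3 log2 units while its day 5 arrays lie within 0.3 of each other. P4ha3, a catalytic subunit of the prolyl hydroxylase that matures collagen, read 3.10, 3.28 and 1.18 in sham and 9.86, 8.19 and 9.97 on day 5 (6.82 ± 0.69, at least 39.3-fold). Lrrc15, a leucine-rich repeat membrane protein, read 1.50, 2.24 and 3.73 in sham and 9.13, 9.65 and 8.26 on day 5 (6.52 ± 0.91, at least 31.3-fold). Klrb1a, a lectin-like receptor gene known from natural killer cells, read 2.74, 0.93 and 1.79 in sham and 8.48, 8.01 and 8.78 on day 5 (6.60 ± 0.83, at least 20.8-fold). The other 6 of the 12 were the cytokine Il6 (at least 13.5-fold) and the cell division genes Dlgap5 (at least 15.2-fold), Psrc1 (at least 24.1-fold), Cdca5 (at least 54-fold), Cdkn3 (at least 66.7-fold) and Cenph (at least 17.7-fold). Psrc1 was read from 1 of several probe sets, which ran from -0.97 to 6.82, so that its direction depends on the probe set. Those of Dmp1 ran from 2.91 to 9.06, of Dlgap5 from 1.7 to 6.95 and of Lrrc15 from 4.05 to 6.52.

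The 12 largest decreases included transporters and metabolic enzymes. Slc4a1, the chloride-bicarbonate exchanger of acid-secreting intercalated cells that red cells also make, read 10.07, 11.22 and 11.96 on the sham arrays and 4.63, 6.57 and 5.46 on day 5, a difference of -5.53 ± 0.62 (adjusted p = 0.000121, 46.2-fold lower). Gpx6, a glutathione peroxidase, read 10.12, 11.22 and 11.72 in sham and 6.09, 7.10 and 5.62 on day 5 (-4.75 ± 0.48, 26.9-fold lower). In both the nearest arrays of the groups stand over 3 log2 units apart. Corin, the protease that activates atrial natriuretic peptide, went from 7.36, 8.71 and 9.61 to 4.39, 3.95 and 1.38 (-5.32 ± 0.84, at least 16.5-fold lower). Hpd, an enzyme of tyrosine breakdown, went from 9.57, 8.02 and 8.67 to 4.86, 2.28 and 3.45 (-5.23 ± 0.68, at least 16.9-fold lower). G6pc, the glucose-6-phosphatase of gluconeogenesis, went from 8.12, 8.64 and 9.16 to 4.18, 2.94 and 4.31 (-4.83 ± 0.73, at least 17.6-fold lower). Tmod4, a tropomodulin that caps actin filaments, went from 6.23, 8.20 and 7.55 to 2.91, 1.46 and 1.78 (-5.28 ± 0.66, at least 7.22-fold lower). The largest fitted fall was that of Slco1a1, an organic anion transporter, from 9.35, 8.55 and 7.46 to 4.99, 1.61 and 0.73 (-6.01 ± 1.90, adjusted p = 0.0382, at least 13.3-fold lower). Its lowest array was 12, the day 5 array without Y-linked signal, and its call was lost without array 1, 2, 3, 11 or 12 (adjusted p = 0.0683 to 0.115). The remaining 5 were Lrrc66 (at least 23.9-fold lower), Ugt2b38 (at least 15.1-fold), Mapk8ip2 (at least 10.1-fold), Cyp2d26 (at least 8.62-fold) and Cbln1 (at least 4.97-fold). Probe sets of Mapk8ip2 ran from -5.04 to -0.08, so that its fall depends on the probe set. Those of Slc4a1 ran from -5.88 to -0.94, of Cbln1 from -4.78 to -1.52 and of Slco1a1 from -6.01 to -3.07.

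**Figure D2:**
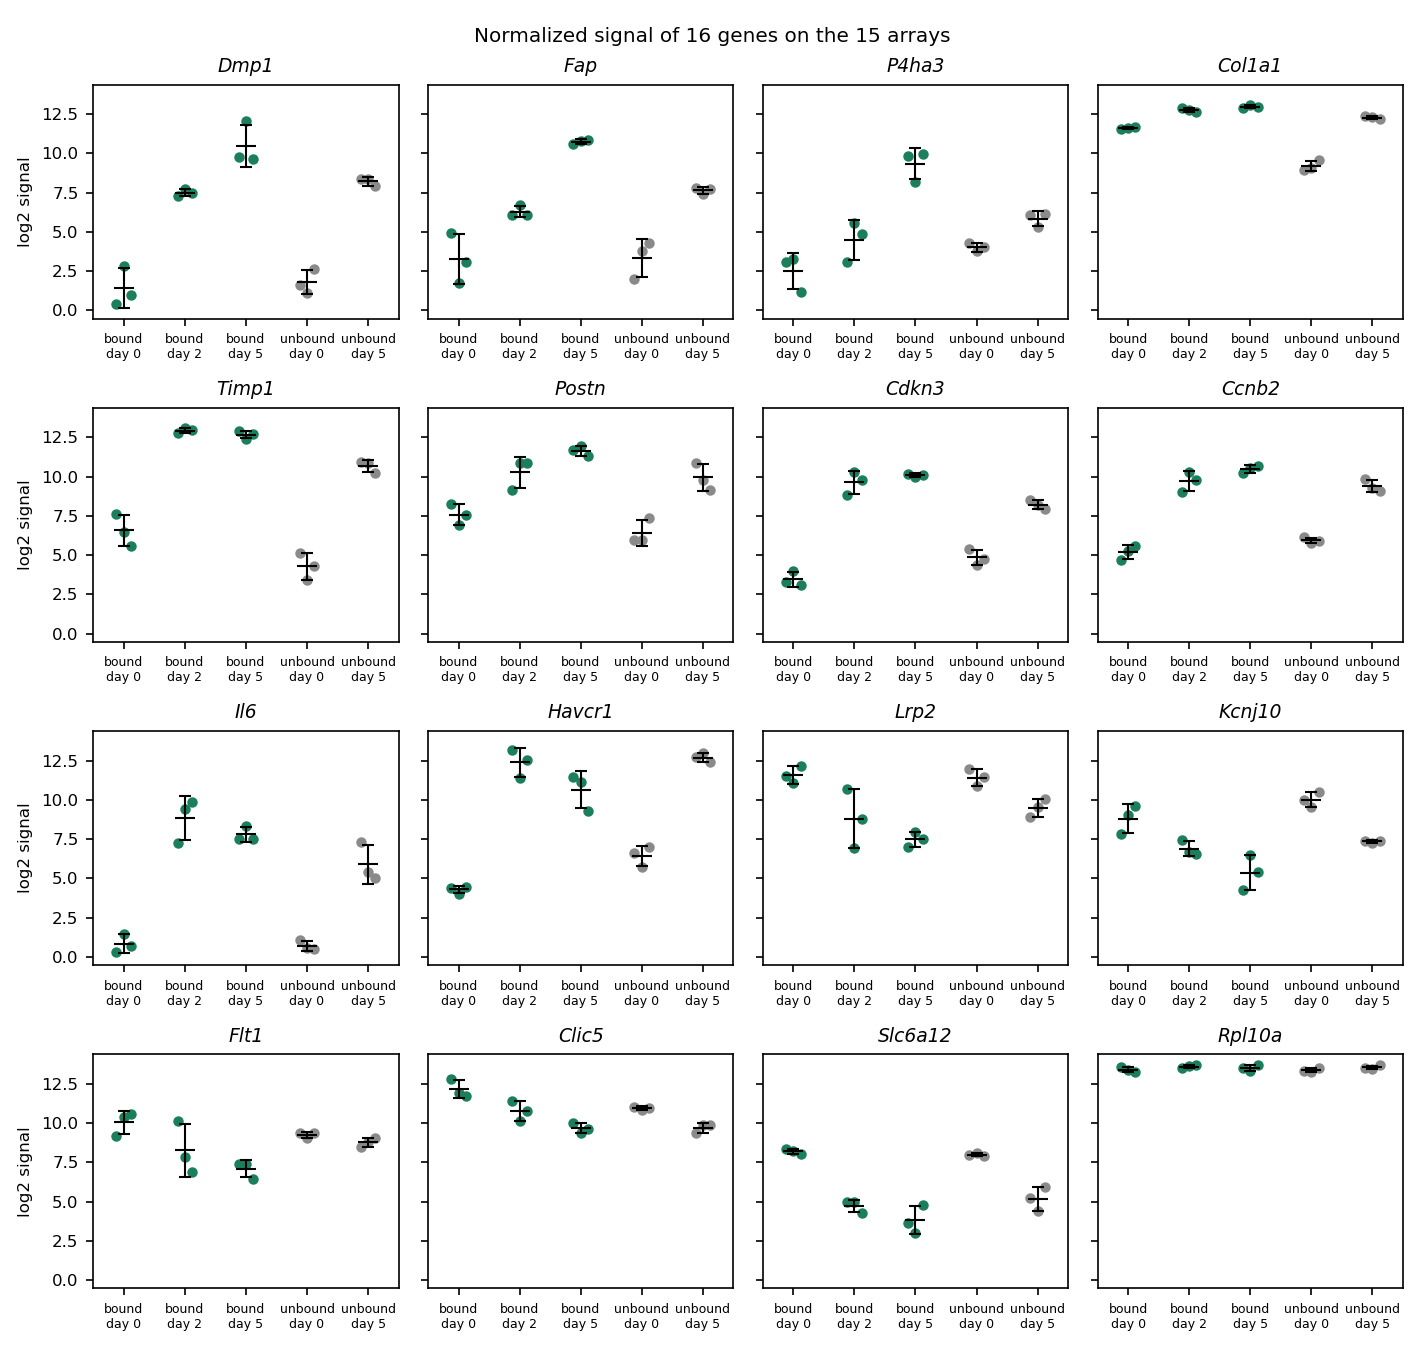
Log2 normalized signal of 16 genes on the 15 arrays; points are arrays (green bound, grey unbound), and the bars give mean ± SD of 3 arrays in each group. Fap rises from a mean of 3.28 to 10.76 in the bound fraction and Lrp2 falls from 11.59 to 7.50, while Rpl10a, the endogenous counterpart of the tagged protein, has means of 13.42 and 13.53.

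Collagens of the list named interstitial, which also holds the non-fibrillar Col18a1 and Col8a2, rose almost throughout. Of 17 tested, 15 were higher (13.7% of all genes were), 0 lower and 2 did not pass (Col18a1 and Col8a2), with a median of 2.32 against 0.12 for all genes. Col1a1, from which the promoter element of the transgene was taken, read 11.54, 11.59 and 11.70 in sham and 12.92, 13.07 and 12.95 on day 5 (1.36 ± 0.19, adjusted p = 0.000571, 2.58-fold). Col3a1, the partner collagen of interstitial fibrils, read 12.33, 12.58 and 12.54 in sham and 13.57, 13.40 and 13.55 on day 5 (1.02 ± 0.19, 2.03-fold). Both were bright already in sham, and the arrays of a group lay within 0.3 log2 units of each other. The other probe set of Col1a1 differed by 1.86 and that of Col3a1 by 2.93. The 4 largest differences of the list were those of Col5a3, Col11a1, Col5a2 and Col12a1. Col5a2, of a fibril collagen, went from 8.66, 10.08 and 9.66 to 12.93, 12.77 and 12.87 (3.39 ± 0.30, adjusted p = 2.7e-05). Col5a3 went from 5.72, 6.27 and 6.24 to 10.84, 10.89 and 10.78 (4.76 ± 0.42), although 1 of its probe sets differed by -0.19. Col11a1, a fibril collagen known from cartilage, went from 5.70, 3.95 and 3.75 to 7.95, 8.64 and 7.58 (3.58 ± 0.48), and Col12a1, which binds to fibril surfaces, from 6.99, 6.90 and 7.47 to 10.16, 10.25 and 10.97 (3.34 ± 0.44). Probe sets of Col12a1 ran from 0.78 to 3.4. No array of one day reached the range of the other in any of these 6 genes. In the unbound fraction 15 collagens were higher as well, with a median of 2.37.

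Basement membrane genes did not follow. Of 18 tested, 0 were higher, 4 lower and 14 did not pass, with a median of -0.25. The 4 were chains of collagen IV other than the ubiquitous pair Col4a1 and Col4a2. Col4a3 read 11.59, 10.95 and 11.23 in sham and 9.32, 8.69 and 10.26 on day 5 (-1.84 ± 0.34, adjusted p = 0.00264), and Col4a6 7.43, 8.26 and 9.17 in sham and 6.14, 6.17 and 6.19 on day 5 (-2.12 ± 0.48, adjusted p = 0.00819). Col4a4 differed by -1.44 ± 0.32 and Col4a5 by -1.87 ± 0.55; the Col4a5 call disappeared without array 2, 3, 10 or 11 (adjusted p = 0.0527 to 0.0867). Col4a3, Col4a4 and Col4a5 form the network of the glomerular basement membrane, which podocytes make, and all 10 podocyte markers tested also fell; the part of that fall in this result was not tested. Col4a1 and Col4a2 differed by 0.38 ± 0.22 and 0.39 ± 0.23 and did not pass (adjusted p = 0.235 and 0.23). With arrays centred on their medians 5 basement membrane genes were higher, and without array 3 there was 1. In the unbound fraction 4 were higher and 0 lower, with a median of 0.69.

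Enzymes and chaperones that process collagen rose in part. Of 17 tested, 9 were higher, 0 lower and 8 did not pass, with a median of 0.81. P4ha3 rose, as above, whereas its paralogs P4ha1 and P4ha2 differed by -0.16 ± 0.32 and 0.46 ± 0.29 and did not pass. Bmp1, the protease that trims the ends of procollagen, read 6.31, 6.56 and 6.26 in sham and 10.23, 9.79 and 10.42 on day 5 (3.77 ± 0.28, adjusted p = 6.8e-06), with probe sets from -1.14 to 3.77. The crosslinking enzyme Lox went from 10.23, 10.27 and 10.54 to 12.12, 11.63 and 12.21 (1.64 ± 0.24, 3.12-fold), with probe sets from 0.18 to 1.64. Its relative Loxl3 went from 8.31, 8.55 and 7.81 to 10.11, 10.00 and 10.04 (1.83 ± 0.38, 3.54-fold). Day 5 arrays were above all sham arrays in these 4 genes.

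Among 25 matrix glycoproteins and proteoglycans 12 were higher, 1 was lower and 12 did not pass, with a median of 1.06. Fbln2, fibulin 2 of elastic fibres and vessel walls, read 2.88, 2.68 and 4.49 in sham and 9.99, 9.32 and 10.09 on day 5 (6.45 ± 0.60, adjusted p = 3.29e-05, at least 48.9-fold). Its other probe set differed by -0.16, so that its rise depends on the probe set, and the mean over both gave 3.15. Cthrc1, a secreted collagen triple helix protein, read 1.44, 3.30 and 5.18 in sham and 8.76, 9.59 and 8.91 on day 5 (5.79 ± 0.84, at least 25.5-fold). Has2, which makes hyaluronan, read 3.23, 4.05 and 2.73 in sham and 7.31, 8.58 and 7.87 on day 5 (4.58 ± 0.75, at least 14.6-fold). These 3 had sham means at or under the controls and read above 7 on every day 5 array. Postn, periostin, which links matrix to integrins, was detected before and went from 8.26, 6.91 and 7.58 to 11.67, 11.95 and 11.32 (4.07 ± 0.58, 16.7-fold). The 1 that fell was Tnxb, tenascin X of the resting stroma (-2.96 ± 0.69, from 8.27, 9.67 and 10.62 to 5.86, 7.30 and 6.53). Fn1, fibronectin, read 10.04, 10.95 and 11.15 in sham and 11.22, 12.02 and 12.09 on day 5, did not pass (1.06 ± 0.40, adjusted p = 0.0698) and was higher in the unbound fraction (2.11 ± 0.40, adjusted p = 0.00546). The difference between these changes did not pass. In the bound fraction the other Fn1 probe set differed by 2.34, and Fn1 passed in 5 of 17 alternative settings. In the unbound fraction 16 of the 25 were higher and 0 lower (median 1.61).

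Matrix proteases and their inhibitors held 13 higher, 1 lower and 9 that did not pass of 23, with a median of 1.69. Timp1, an inhibitor of metalloproteinases, had the largest rise in the list, from 7.62, 6.50 and 5.61 to 12.89, 12.43 and 12.69 (6.09 ± 0.48, adjusted p = 1.11e-05, 68.1-fold). The sham arrays spread over 2 log2 units and the day 5 arrays over less than 0.5. Timp3, which is bound to basement membranes, was the 1 that fell (-1.72 ± 0.39), and Timp2 did not pass (-0.22 ± 0.24). Adamts12, a secreted protease with thrombospondin motifs, read 5.70, 7.28 and 6.08 in sham and 11.71, 11.36 and 11.99 on day 5 (5.33 ± 0.43, 40.3-fold). Its other probe set differed by 1.9. Mmp7, matrilysin, read 3.75, 3.18 and 2.78 in sham and 7.63, 8.75 and 8.23 on day 5 (4.96 ± 0.55, at least 17.8-fold), and Mmp9, gelatinase B, 5.20, 4.44 and 4.86 in sham and 8.98, 9.49 and 9.25 on day 5 (4.41 ± 0.47, 21.2-fold). For Mmp7, which injured tubules are known to make, the unbound fraction rose by 7.53 ± 0.55. For 15 genes of this list the RefSeq table held a promoter (build GRCm38.p6, windows from 250 bases before to 50 after a start). Of these, 6 (40.0%) held the AP-1 motif TGACTCA on either strand, against 1607 of all 27025 genes (5.95%). The motif was 1 of several searched in several lists, and the share counts members whether or not they rose. Of the 305 genes with a window that rose 8-fold or more, 22 (7.21%) held it, against 5.19% of the 13416 tested genes with a window. The 250 bases before the first of the 2 Mmp7 starts are shown because they hold 1 such match, in capitals; they lie at chr9:7691840-7692089 on the plus strand, and the second window has none.
Mmp7: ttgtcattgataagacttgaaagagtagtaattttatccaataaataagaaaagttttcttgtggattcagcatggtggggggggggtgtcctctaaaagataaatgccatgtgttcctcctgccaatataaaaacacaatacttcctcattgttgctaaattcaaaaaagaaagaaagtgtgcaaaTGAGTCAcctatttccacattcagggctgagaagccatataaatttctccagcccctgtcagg

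**Figure D3:**
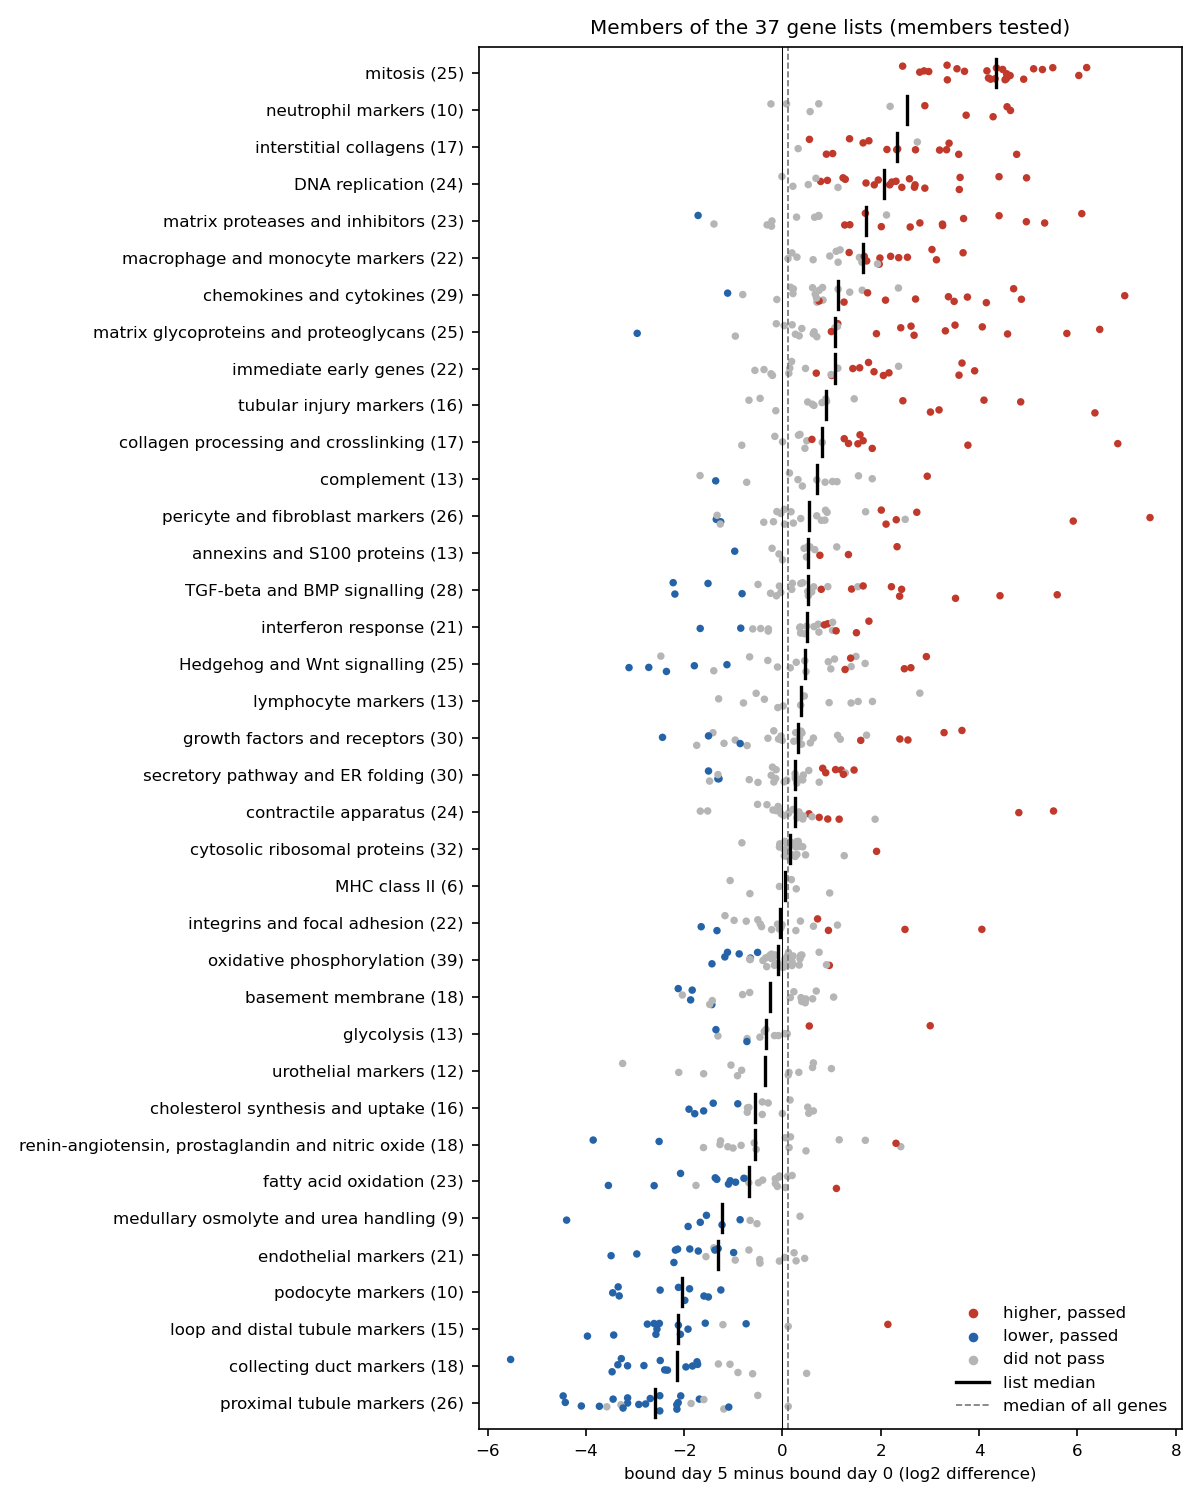
Log2 difference of bound day 5 minus bound day 0 (horizontal axis) for each tested member of 37 gene lists (rows, with the number tested); red members rose, blue fell and grey did not pass, black bars are list medians and the dashed line is the median of all genes at 0.12. The mitosis list lies wholly to the right with a median of 4.35, and proximal tubule markers lie lowest with a median of -2.59.

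In the contractile apparatus 6 members were higher, 0 lower and 18 did not pass of 24 tested (median 0.25), where 13.7% of all genes were higher. Acta2, the smooth muscle actin used to mark myofibroblasts, read 12.40, 12.86 and 12.79 in sham and 13.46, 13.65 and 13.70 on day 5 (0.92 ± 0.21, adjusted p = 0.00908, 1.89-fold). It was among the brightest genes before obstruction, and its call was lost with averaged probe sets and without the bright arrays (adjusted p = 0.0508 to 0.0565). Actg2, the enteric smooth muscle actin, read 7.43, 5.05 and 7.28 in sham and 11.57, 11.19 and 11.42 on day 5 (4.81 ± 0.69, 28-fold). Cnn1, calponin 1, read 5.93, 1.27 and 5.97 in sham and 9.71, 10.27 and 9.72 on day 5 (5.51 ± 1.17, adjusted p = 0.00621, 45.7-fold). Sham array 2 lay under its negative control of 4.16, so that the Cnn1 fold rests in part on an undetected value. With 1 array left out the difference of Cnn1 ran from 3.96 to 6.32. Tagln, transgelin, differed by 0.75 ± 0.22, a call lost without array 3 or 10 (adjusted p = 0.105 to 0.115). Myh11, the heavy chain of mature smooth muscle, read 10.58, 11.99 and 12.72 in sham and 9.93, 10.68 and 9.67 on day 5, with overlapping arrays (-1.67 ± 0.80, adjusted p = 0.153). Without the bright arrays the count of 6 was 2. In the unbound fraction 9 members were higher and 0 lower, with a median of 0.69.

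Pericyte and fibroblast markers split. Of 26 tested, 6 were higher, 2 lower and 18 did not pass, with a median of 0.53. Beside Fap, Thy1, a surface antigen of fibroblasts and T cells, went from 6.59, 7.13 and 6.51 to 12.77, 12.72 and 12.48 (5.92 ± 0.30, adjusted p = 9.47e-07, 60.4-fold), and no array departed from its group by more than 0.5. Cd248, endosialin of stromal cells, went from 8.38, 8.60 and 7.81 to 10.31, 10.34 and 10.18 (2.01 ± 0.33, 4.03-fold). Ngfr, the low-affinity neurotrophin receptor, went from 6.72, 5.55 and 5.24 to 9.20, 7.52 and 8.98 (2.73 ± 0.52, 6.64-fold), with probe sets from 0.94 to 2.73. The other 2 that rose were Cspg4 (2.31 ± 0.35), the NG2 proteoglycan of pericytes, and Mcam (2.11 ± 0.31). The 2 that fell, Kcnj8 (-1.35 ± 0.34) and Abcc9 (-1.26 ± 0.36), code for both parts of the ATP-sensitive potassium channel of mural cells; 1 was left without array 2 or 10, and 0 with arrays centred on their medians. Pdgfrb read 10.92, 11.53 and 11.59 in sham and 12.28, 12.17 and 12.17 on day 5 and did not pass (0.86 ± 0.32, adjusted p = 0.0673) although its arrays did not overlap. Pdgfra read 11.87, 12.22 and 12.29 in sham and 12.19, 12.26 and 12.05 on day 5 (0.04 ± 0.27, adjusted p = 0.933). The summed signal of the 26 markers was 48651 to 55253 in sham and 61228 to 73108 on day 5.

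In TGF-beta and BMP signalling several ligands and binding proteins rose and others fell, while the intracellular mediators did not pass. Of 28 members tested, 9 were higher, 4 lower and 15 did not pass, with a median of 0.52. Tgfb1, the ligand best known for driving fibrosis, read 7.75, 7.55 and 6.60 in sham and 10.79, 8.26 and 10.12 on day 5 (2.42 ± 0.54, adjusted p = 0.00781), with array 11 close to the sham range; the call was lost with only the 6 bound arrays and without the bright arrays (adjusted p = 0.0563 to 0.0712). Inhba and Inhbb, the subunits of activins, went from 7.31, 7.31 and 6.67 to 10.43, 10.99 and 10.43 (3.52 ± 0.44, 11.5-fold) and from 8.43, 6.03 and 6.37 to 11.45, 10.89 and 11.77 (4.42 ± 0.49, 21.5-fold). The other probe set differed by 0.81 for Tgfb1, 1.4 for Inhba and 2.39 for Inhbb. Ltbp2, a microfibril protein of the latent TGF-beta binding family, went from 5.31, 3.97 and 5.51 to 10.87, 10.32 and 10.36 (5.59 ± 0.61, adjusted p = 0.000107, 48.1-fold). The receptor Tgfbr1 rose by 0.79 ± 0.24, and Smad2, Smad3 and Smad4, the transcription factors downstream, differed by -0.12 ± 0.28, -0.06 ± 0.18 and -0.24 ± 0.18 and did not pass. The 4 that fell were Fst (-2.22 ± 0.64), which binds activin, Bmp7 (-2.19 ± 0.40), Tgfbr3 (-1.51 ± 0.45) and Bmp4 (-0.82 ± 0.27). That count was 2 without array 1, 2, 10 or 11, 1 without array 3 and 2 with arrays centred on their medians.

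Hedgehog and Wnt genes moved in both directions, with 5 higher, 5 lower and 15 that did not pass of 25 (median 0.45). Shh, the Hedgehog ligand made by collecting duct, read 6.02, 6.28 and 6.45 in sham and 3.88, 3.74 and 2.98 on day 5 (-2.72 ± 0.60, adjusted p = 0.00727, at least 3.43-fold lower), a call lost without the bright arrays (adjusted p = 0.0696). Ptch1 and Hhip, receptors that are also targets of the pathway, fell as well, with differences of -1.13 ± 0.29 and -3.12 ± 0.51. Other probe sets reached -0.45 for Shh and -0.42 for Hhip. The effector Gli2 rose from 5.26, 7.67 and 6.12 to 9.29, 9.68 and 8.85 (2.93 ± 0.60, adjusted p = 0.00494), while Gli1 did not pass and its arrays overlapped (4.27, 5.74 and 3.87 in sham and 4.14, 2.48 and 5.25 on day 5). On the Wnt side Wnt2 went from 4.21, 4.90 and 4.57 to 7.71, 6.67 and 7.15 (2.61 ± 0.49, 6.11-fold), and Wnt4 (2.48 ± 0.36), the transcription factor Lef1 (1.39 ± 0.36) and the inhibitor Dkk2 (1.27 ± 0.35) also rose. Rspo3, which amplifies Wnt signals, and Wnt9b of the collecting duct fell, with differences of -2.36 ± 0.74 and -1.79 ± 0.46. Without array 1, 10 or 12 the count of members that rose was 3, and the count of those that fell was 3 without array 2 and 2 without array 3.

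Growth factors and receptors held 5 higher, 3 lower and 22 that did not pass of 30 (median 0.31), shares near the 13.7% and 9.99% of all genes. Ereg, a ligand of the EGF receptor, read 6.39, 4.41 and 4.88 in sham and 8.04, 10.23 and 8.36 on day 5 (3.65 ± 0.86, adjusted p = 0.0103). Gdnf, the ligand of Ret in kidney development, read 4.54, 0.83 and 3.45 in sham and 6.17, 6.26 and 6.25 on day 5 (3.29 ± 0.75, at least 3.94-fold). Without the bright arrays neither passed (adjusted p = 0.0541 and adjusted p = 0.0623). Fgf2 rose by 2.55 ± 0.68, a call lost without array 2, 3 or 10 (adjusted p = 0.0633 to 0.0775). The other 2 that rose were Igfbp6 (2.39 ± 0.51) and Edn1 (1.59 ± 0.52), the precursor of endothelin. Fgfr2, an epithelial receptor, fell from 10.98, 10.78 and 11.18 to 9.15, 7.47 and 8.98 (-2.44 ± 0.45), with probe sets from -2.44 to -0.23. Fgf1 (-1.50 ± 0.45) and Igfbp5 (-0.86 ± 0.21) fell too. The count of those that rose was 3 without array 3 or 10, and that of those that fell 1 with arrays centred on their medians.

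Cell division genes rose as a body. All 25 tested members of the mitosis list were higher and 0 lower, with a median of 4.35, the highest of the 37 lists, and differences from 2.44 to 6.19. Ccnb2, cyclin B2, which drives entry into mitosis, read 4.70, 5.27 and 5.60 in sham and 10.22, 10.53 and 10.69 on day 5 (5.29 ± 0.34, adjusted p = 2.43e-06, 39.1-fold). Birc5, survivin of the chromosomal passenger complex, read 6.34, 7.12 and 5.90 in sham and 11.66, 12.10 and 12.09 on day 5 (5.50 ± 0.35, 45.2-fold). Its partner kinase Aurkb read 1.03, 4.15 and 2.71 in sham and 7.69, 9.12 and 9.17 on day 5 (6.03 ± 0.68, at least 24.5-fold). Each of the 3 stood at least 3 log2 units above its highest sham array on every day 5 array. Mki67, the proliferation antigen, went from 6.87, 7.31 and 7.26 to 11.42, 11.71 and 11.29 (4.33 ± 0.27, 20.1-fold). Top2a, the topoisomerase that untangles chromosomes, went from 6.89, 6.58 and 6.72 to 10.93, 11.64 and 11.20 (4.53 ± 0.26), with 1 of its probe sets at -0.32. Cdkn3, a phosphatase of cyclin-dependent kinases, went from 3.28, 3.98 and 3.12 to 10.20, 9.98 and 10.13 (6.64 ± 0.38, adjusted p = 1.35e-06, at least 66.7-fold). In the unbound fraction 21 of the 25 were higher and 0 lower, with a median of 2.82.

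Most DNA replication genes rose too. Of 24 tested, 19 were higher, 0 lower and 5 did not pass, with a median of 2.06. Mcm6, a subunit of the replicative helicase, read 6.46, 7.14 and 7.07 in sham and 10.29, 10.56 and 10.65 on day 5 (3.61 ± 0.26, adjusted p = 4.88e-06, 12.2-fold), although its probe sets ran from -0.23 to 3.86. Uhrf1, which maintains DNA methylation at the fork, read 7.16, 7.22 and 7.35 in sham and 10.61, 10.77 and 11.13 on day 5 (3.60 ± 0.20, 12.1-fold). Chaf1b, of chromatin assembly factor 1, read 3.71, 3.14 and 2.28 in sham and 8.16, 7.65 and 8.22 on day 5 (4.96 ± 0.52, at least 15.6-fold). Its other probe set differed by 0.61. The clamp Pcna (0.52 ± 0.23), the licensing factor Cdt1 (-0.01 ± 0.47) and E2f1 (0.21 ± 0.62) did not pass.

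Promoter windows of both groups were searched for 3 motifs known from cell cycle genes: the CCAAT box, bound by NF-Y, the element CHR (TTTGAA), which acts with it in genes of mitosis, and the E2F site of replication genes (TTTCCCGC or TTTGGCGC), each on both strands of the RefSeq windows described above. Of 21 mitosis genes with a window, 18 (85.7%) held a CCAAT box, 17 (81.0%) a CHR and 16 (76.2%) both, against 41.1%, 20.2% and 8.97% of all 27025 genes. Of 20 replication genes 13 (65.0%) held a CCAAT box, 2 (10.0%) a CHR and 7 (35.0%) an E2F site, against 1.8% of all genes for the last. The E2F site was found in 0 of the 21 mitosis genes. Among 305 genes that rose 8-fold or more and have a window, 54.8% held a CCAAT box, 23.0% a CHR, 17.4% both and 3.61% an E2F site. Of the 13416 tested genes with a window the shares were 41.9%, 15.3%, 7.17% and 2.94%. Among 144 that fell by as much the shares were 38.2%, 24.3%, 8.33% and 2.08%, so a CHR was not rarer there. The genes that rose include members of the mitosis list. The 250 bases before the start of 3 cell division genes (Ccnb2 and Top2a of the mitosis list, and Cdkn3) and 1 replication gene are shown because their messages rose and they carry these motifs. Capitals mark CCAAT boxes and CHR elements on either strand in the first 3, and E2F sites alone in Mcm6. Cdkn3 (chr14:46760291-46760540, plus strand) has 3 CCAAT boxes and 1 CHR, Ccnb2 (chr9:70421555-70421804, minus strand) 3 and 1, and Top2a (chr11:99024190-99024439, minus strand) 6 and 2. Mcm6 (chr1:128359706-128359955, minus strand) has 2 E2F sites. A match describes these letters only, and no binding was measured.
Cdkn3: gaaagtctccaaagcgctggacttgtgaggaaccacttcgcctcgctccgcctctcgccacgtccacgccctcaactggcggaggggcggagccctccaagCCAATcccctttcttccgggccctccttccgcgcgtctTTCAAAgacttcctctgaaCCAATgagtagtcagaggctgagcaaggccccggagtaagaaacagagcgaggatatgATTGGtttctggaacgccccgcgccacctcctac
Ccnb2: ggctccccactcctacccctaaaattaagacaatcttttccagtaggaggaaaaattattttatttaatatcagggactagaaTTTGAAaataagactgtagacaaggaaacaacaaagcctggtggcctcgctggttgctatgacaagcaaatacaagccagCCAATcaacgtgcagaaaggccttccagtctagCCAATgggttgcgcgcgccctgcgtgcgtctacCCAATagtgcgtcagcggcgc
Top2a: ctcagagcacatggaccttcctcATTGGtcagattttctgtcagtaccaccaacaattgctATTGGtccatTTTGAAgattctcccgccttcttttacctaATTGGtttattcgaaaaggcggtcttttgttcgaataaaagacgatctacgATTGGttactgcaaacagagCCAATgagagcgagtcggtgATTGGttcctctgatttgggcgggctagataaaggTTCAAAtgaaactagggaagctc
Mcm6: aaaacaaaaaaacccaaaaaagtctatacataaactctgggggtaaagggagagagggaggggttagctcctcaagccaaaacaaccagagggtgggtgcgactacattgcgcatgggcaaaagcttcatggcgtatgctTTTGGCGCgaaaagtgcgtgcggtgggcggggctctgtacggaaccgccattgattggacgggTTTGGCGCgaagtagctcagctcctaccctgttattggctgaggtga

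Part of the macrophage and neutrophil markers rose in the bound fraction. Among 22 markers of macrophages and monocytes the test passed 11 upward and 0 downward, with a median of 1.64. Their mean level was 6.67 to 7.88 in sham and 8.41 to 9.65 on day 5, lowest on array 12, and their summed signal 5503 to 14436 and 14811 to 37187. Aif1, a calcium-binding protein of macrophages, read 5.87, 5.37 and 7.00 in sham and 9.48, 9.88 and 8.27 on day 5 (3.13 ± 0.48, adjusted p = 0.000978). Ms4a7, a membrane protein of macrophages, read 3.05, 4.46 and 4.34 in sham and 7.20, 8.42 and 7.25 on day 5 (3.67 ± 0.54, at least 10.4-fold). Its other probe set differed by 1.41. Adgre1, the F4/80 antigen, read 5.35, 7.24 and 6.76 in sham and 7.54, 9.28 and 7.38 on day 5 and did not pass (1.62 ± 0.78, adjusted p = 0.156), and Itgam stayed at or under the controls on both days. The count of 11 was 6 without array 1 and 7 without array 10 or 11. In the unbound fraction 16 rose and 0 fell, with a median of 2.75 and a mean level of 7.86 to 8.33 on day 0 and 10.44 to 10.85 on day 5.

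Neutrophil markers held 5 higher, 0 lower and 5 that did not pass of 10 (median 2.54, or 1.07 with values set to at least the controls). S100a9, which with S100a8 forms calprotectin, read 6.09, 4.94 and 4.08 in sham and 9.37, 10.56 and 8.03 on day 5 (4.29 ± 0.76, 19.5-fold). S100a8 itself read 4.21, 3.50 and 5.58 in sham and 8.17, 9.02 and 7.31 on day 5 (3.74 ± 0.80). Both were lowest on array 12 and highest on array 11 among the day 5 arrays. Mpo (4.57 ± 0.68, at least 12.6-fold) and Mmp8 (4.64 ± 0.74, at least 5.57-fold) of neutrophil granules also rose. The fifth call was Ltf, lactoferrin, which lay at or under the controls on both days and overlapped between them (0.95, 0.83 and 2.46 in sham and 4.77, 5.82 and 2.33 on day 5, adjusted p = 0.0499), so that no size of change can be given. Csf3r, Cxcr2, Elane and Ngp also had day 5 means at or under the controls. Of 13 lymphocyte markers 0 passed in limma (2 higher and 1 lower at an unadjusted p under 0.05), with 1 higher without array 2 or 12 and 2 without array 11. Of 6 class II antigen presentation genes 0 passed, also at an unadjusted p (median 0.06), among them Cd74, the invariant chain, at 11.37, 12.35 and 12.72 in sham and 11.82, 11.70 and 10.93 on day 5.

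Chemokines and cytokines held 12 higher, 1 lower and 16 that did not pass of 29 (median 1.13, or 0.83 with values set to at least the controls). The interleukin 6 family was among those that rose. Il6 read 0.31, 1.49 and 0.72 in sham and 7.53, 8.34 and 7.54 on day 5 (6.96 ± 0.69, adjusted p = 5.09e-05, at least 13.5-fold). Lif, leukaemia inhibitory factor, read 5.43, 4.25 and 3.70 in sham and 8.91, 10.32 and 8.74 on day 5 (4.86 ± 0.55, 29-fold), with other probe sets down to -1.03. Il11 read 6.73, 5.86 and 4.77 in sham and 9.73, 10.97 and 9.09 on day 5 (4.15 ± 0.74, 17.7-fold). All 3 signal through gp130, and in all 3 array 11 was the highest of day 5. Cxcl5, a neutrophil chemoattractant, read 2.08, 2.99 and 3.04 in sham and 7.28, 8.18 and 6.75 on day 5 (4.70 ± 1.01, at least 10.3-fold). Ccl2, the main chemoattractant of monocytes, did not pass in the bound fraction (7.18, 6.19 and 6.01 in sham and 7.51, 6.31 and 7.66 on day 5, 0.70 ± 0.61, adjusted p = 0.439) and was higher in the unbound fraction (2.53 ± 0.61, adjusted p = 0.0211), while the difference between these changes did not pass (adjusted p = 0.364). The 1 that fell was Cxcl12 (-1.12 ± 0.33), a chemokine of resting stroma, a call lost without array 1, 2, 3, 10 or 11.

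Immediate early transcription factors held 11 higher, 0 lower and 11 that did not pass of 22, with a median of 1.06. Egr2 went from 9.84, 9.10 and 6.93 to 12.15, 12.13 and 12.36 (3.59 ± 0.58, adjusted p = 0.00127, 12.1-fold), Egr3 from 6.02, 5.04 and 3.50 to 8.33, 8.37 and 8.81 (3.65 ± 0.58, 12.6-fold). Fosl1, a partner of Jun in AP-1, went from 3.64, 2.13 and 2.69 to 6.08, 7.98 and 6.12 (3.91 ± 0.78, at least 6.42-fold). Another probe set differed by 0.44 for Egr3 and by 0.34 for Fosl1. The sham arrays were not alike in Egr2 and Egr3, where array 3 lay lowest. Jun and Jund differed by -0.23 ± 0.29 and -0.20 ± 0.16 and did not pass. Without array 11 there was 1 lower member.

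Interferon response genes held 5 higher, 2 lower and 14 that did not pass of 21 (median 0.49), where 13.7% of all genes were higher and 9.99% lower. Oas1a, the oligoadenylate synthetase, read 7.47, 8.27 and 8.35 in sham and 9.10, 9.73 and 9.78 on day 5 (1.50 ± 0.31, adjusted p = 0.00537), a call lost without the bright arrays (adjusted p = 0.0607). The count of 5 was 2 without array 1 or 10, 1 without array 3 and 3 without array 11 or 12, and that of 2 was 0 without array 2 or 10 and 1 without array 3, 11 or 12. Complement genes held 1 higher, Cfi (2.94 ± 0.63, at least 4.02-fold; without the bright arrays adjusted p = 0.0516), and 1 lower, Cd59a (-1.36 ± 0.30), of 13; without array 1 there were 2 higher.

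Some genes of injured tubule rose in the bound fraction, with 6 higher, 0 lower and 10 that did not pass of 16 (median 0.89). Havcr1, the kidney injury molecule of proximal tubule, read 4.41, 4.04 and 4.45 in sham and 11.49, 11.17 and 9.32 on day 5 (6.36 ± 0.56, adjusted p = 2.55e-05, 81.9-fold), lowest on array 12. Its other probe set differed by 3.99. Lcn2, the iron-siderophore carrier NGAL, read 7.41, 7.91 and 8.10 in sham and 11.94, 12.10 and 11.69 on day 5 (4.10 ± 0.28, 17.1-fold). Krt20, a keratin of transitional epithelium, read 1.44, 1.67 and 1.18 in sham and 6.55, 7.11 and 5.16 on day 5 (4.85 ± 0.68, at least 4.69-fold). The groups stand far apart in each. On the unbound arrays Havcr1 read 6.60, 5.74 and 6.98 on day 0 and 12.71, 12.96 and 12.42 on day 5 (6.25 ± 0.56), and Lcn2 9.24, 8.92 and 9.35 and 12.87, 12.88 and 13.18 (3.81 ± 0.28). Both means were higher there than in the bound fraction on each day, the part of unbound RNA in the bound values was not tested, and 9 of the 16 were higher there (median 2.07).

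Markers of healthy tubule fell. Among 26 markers of proximal tubule 19 fell, 0 rose and 7 did not pass, with a median of -2.59. Lrp2, megalin, the endocytic receptor of the brush border, read 11.53, 11.05 and 12.18 in sham and 6.98, 7.97 and 7.53 on day 5 (-4.09 ± 0.72, adjusted p = 0.00218, 17.1-fold lower); its other probe sets reached 0.87. Slc22a6, the organic anion transporter OAT1, read 8.59, 8.06 and 8.51 in sham and 4.24, 5.85 and 3.91 on day 5 (-3.73 ± 0.71, adjusted p = 0.00331, 13.2-fold lower). The mean of the list was 9.41 to 10.18 in sham and 6.71 to 7.66 on day 5, lowest on array 12. Without array 3 the count of markers that fell was 6 and without array 12 it was 10, and without the bright arrays 8. The unbound fraction had 0 higher and 4 lower, with a median of -1.86.

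The distal nephron gave a like picture. Of 15 loop and distal tubule markers 1 was higher, 12 lower (6 without the bright arrays) and 2 did not pass (median -2.12). Egf, made by the thick ascending limb and distal tubule, read 12.48, 12.97 and 13.30 in sham and 8.41, 9.80 and 8.63 on day 5 (-3.97 ± 0.40, adjusted p = 6.2e-05, 15.7-fold lower). Kcnj10, a basolateral potassium channel, read 7.80, 9.03 and 9.59 in sham and 4.24, 6.47 and 5.41 on day 5 (-3.43 ± 0.55, 10.8-fold lower), and Cldn10, a tight junction protein, 11.84, 12.35 and 12.61 in sham and 9.91, 9.08 and 9.56 on day 5 (-2.75 ± 0.38, 6.72-fold lower). Umod, uromodulin, the most abundant urinary protein, went from 13.23, 13.61 and 13.75 to 12.67, 12.97 and 12.73 (-0.74 ± 0.22), a call lost without array 2, 3, 10 or 12 (adjusted p = 0.0739 to 0.106) and with arrays centred on their medians. The 1 that rose was Trpm6 (2.14 ± 0.58), a magnesium channel, and without array 1, 2 or 11 it did not pass. Among 18 markers of collecting duct 13 fell, 0 rose and 5 did not pass (median -2.15). Beside Slc4a1, Aqp4, a basolateral water channel, read 10.85, 11.64 and 11.97 in sham and 7.87, 8.48 and 7.73 on day 5 (-3.47 ± 0.39, adjusted p = 0.000113, 11.1-fold lower). Aqp2, the vasopressin-regulated water channel, read 8.57, 9.35 and 9.30 in sham and 6.81, 5.02 and 6.92 on day 5 (-2.82 ± 0.46, 7.06-fold lower). Avpr2, the vasopressin receptor, read 8.78, 9.85 and 10.28 in sham and 6.32, 6.30 and 6.46 on day 5 (-3.28 ± 0.51, 9.7-fold lower). Every day 5 array lay under every sham array in these genes.

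Genes of the concentrated medulla fell with them. Of 9 genes of osmolyte and urea handling 0 were higher, 6 lower and 3 did not pass (median -1.23). Slc6a12, the betaine transporter, read 8.37, 8.21 and 8.01 in sham and 3.62, 3.02 and 4.78 on day 5 (-4.39 ± 0.44, adjusted p = 5.7e-05, at least 11.7-fold lower). Slc5a3, the inositol transporter, read 12.44, 13.07 and 13.41 in sham and 11.10, 11.81 and 11.37 on day 5 (-1.55 ± 0.29, adjusted p = 0.00302, 2.92-fold lower). The count of 6 was 3 without array 2 or 3. In the unbound fraction Slc6a12 changed by -2.81 ± 0.44 and Slc5a3 by -0.05 ± 0.29, and the list had a median of -0.08 there.

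Podocyte messages, bright in the sham bound fraction, were lower throughout. All 10 markers tested fell and 0 rose, with a median of -2.05. Clic5, a chloride channel protein of foot processes, read 12.83, 11.93 and 11.74 in sham and 10.01, 9.39 and 9.64 on day 5 (-2.49 ± 0.35, adjusted p = 0.000555, 5.61-fold lower). Ddn, dendrin, read 12.44, 11.73 and 11.63 in sham and 10.10, 7.70 and 8.03 on day 5 (-3.32 ± 0.60, adjusted p = 0.00236, 10-fold lower). Ptpro, a receptor phosphatase of podocytes, read 12.46, 11.08 and 10.92 in sham and 9.77, 6.04 and 8.63 on day 5 (-3.34 ± 0.82, adjusted p = 0.0131), a call lost with only the 6 bound arrays and without the bright arrays (adjusted p = 0.0571 to 0.0624). Its other probe set differed by -1.04. Array 1 was the highest of the sham arrays in all 3, and array 10 the highest of day 5. Nphs1, nephrin, differed by -3.45 ± 1.04, a call lost without array 1, 2, 3, 11 or 12 (adjusted p = 0.0501 to 0.102). The summed signal of the list was 31332 to 57714 in sham and 7343 to 15353 on day 5, against 8892 to 9209 and 8222 to 8730 in the unbound fraction, where 2 rose, 1 fell and 7 did not pass (median -0.23). Without the bright arrays 5 of the 10 fell in the bound fraction.

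Endothelial markers were lower in the bound fraction, with 0 higher, 10 lower and 11 that did not pass of 21 (median -1.31). Flt1, a receptor of VEGF, read 9.21, 10.37 and 10.59 in sham and 7.39, 7.42 and 6.47 on day 5 (-2.96 ± 0.66, adjusted p = 0.00782, 7.8-fold lower). Pecam1, the CD31 antigen, read 7.38, 7.84 and 8.17 in sham and 6.77, 6.21 and 6.22 on day 5 and did not pass (-1.40 ± 0.61, adjusted p = 0.116). The count of 10 was 4 without array 2, 2 without array 3 or 10, 6 without array 12 and 3 without the bright arrays. The unbound fraction had 0 higher and 0 lower, with a median of 0.03 (1 and 1 at an unadjusted p under 0.05 in limma). None of 12 urothelial markers passed in limma in the bound fraction (0 higher and 4 lower at an unadjusted p under 0.05); 2 fell without array 10 and 1 without array 11 or 12.

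**Figure D4:**
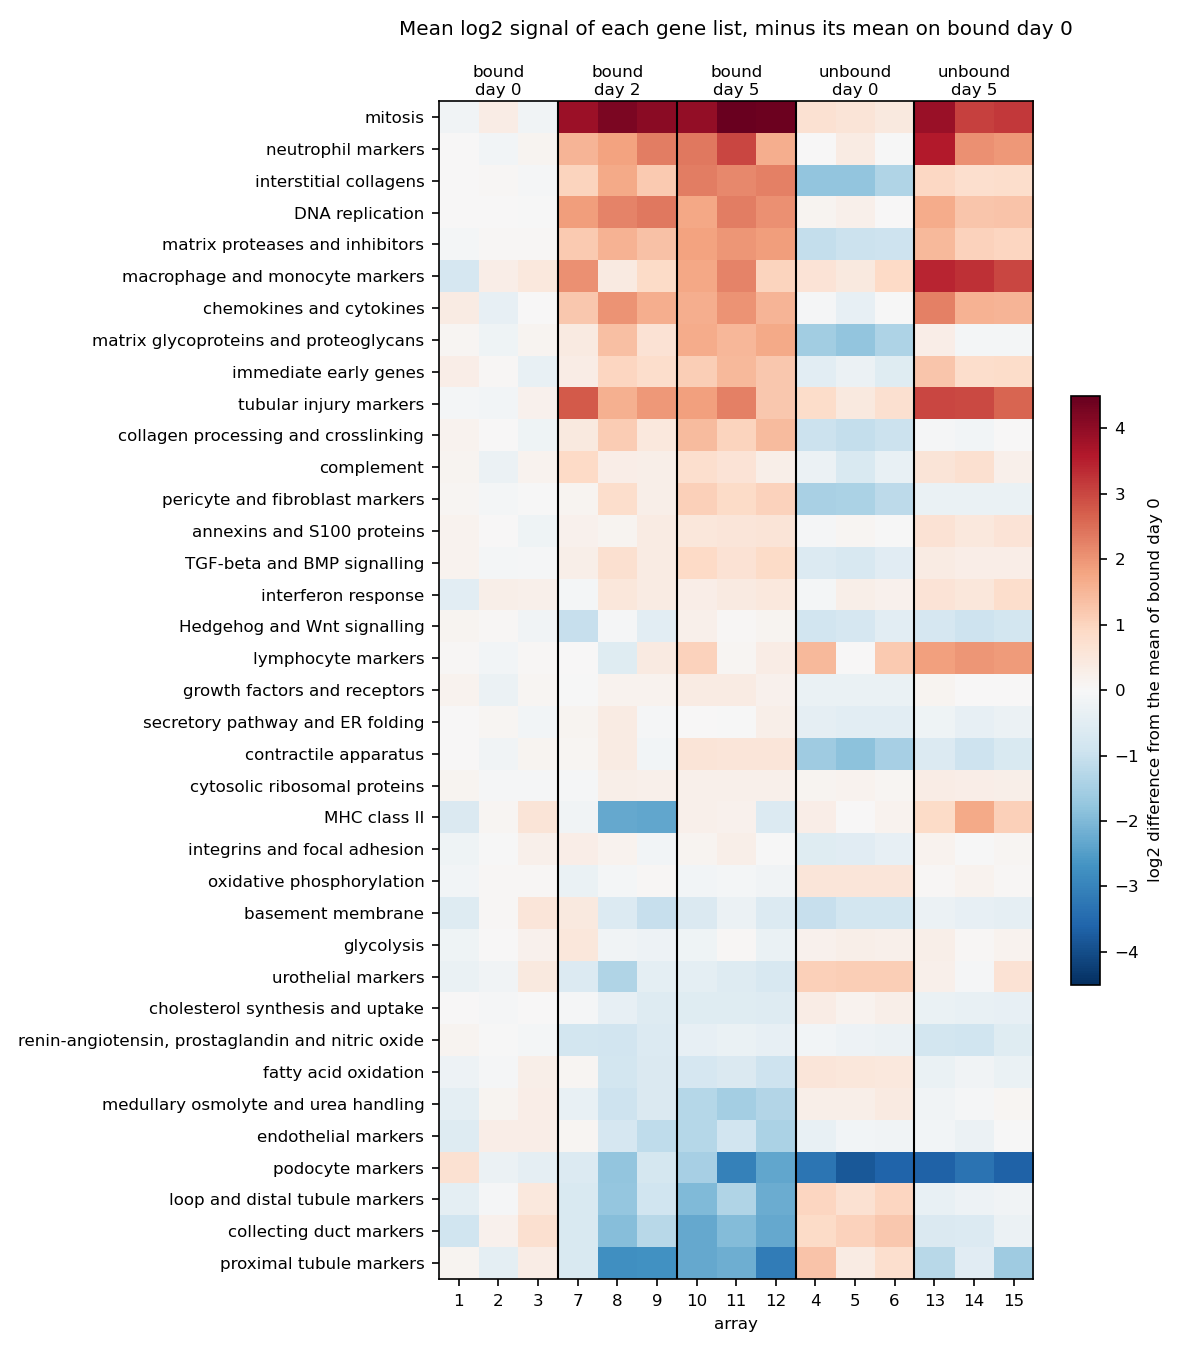
Mean log2 signal of the tested members of each of 37 gene lists (rows) on each of the 15 arrays (columns, by group), minus the mean of the same list on the 3 bound day 0 arrays; red is higher and blue lower. The podocyte row is blue in both unbound groups and in bound day 5, where the means are 8.60 to 10.13 against 11.22 to 12.30 in bound day 0, and the mitosis row is red in every group of obstructed kidney.

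Metabolic genes changed in part. Of 23 fatty acid oxidation genes 1 was higher, 9 lower and 13 did not pass (median -0.69); without array 10 none was higher. Ehhadh, the peroxisomal bifunctional enzyme, read 11.13, 10.61 and 11.60 in sham and 7.33, 8.07 and 7.31 on day 5 (-3.54 ± 0.59, adjusted p = 0.00153, 11.7-fold lower). Ppargc1a, a coactivator of mitochondrial biogenesis, read 10.04, 11.62 and 11.98 in sham and 8.10, 9.83 and 7.87 on day 5 (-2.61 ± 0.59, 6.11-fold lower), a call lost without the bright arrays (adjusted p = 0.0786). The count of 9 was 5 without array 2 or 11 and 4 without array 3. Of 39 oxidative phosphorylation genes 1 was higher, 6 lower and 32 did not pass (median -0.10), and the 6 became 2 without array 2, 10 or 12, 1 without array 3 and 3 without array 11, while the 1 was lost whichever of the 6 arrays was left out. Hk2, an inducible hexokinase that starts glycolysis, rose from 7.07, 6.68 and 6.76 to 9.65, 10.72 and 9.16 (3.00 ± 0.46, adjusted p = 0.000934, 8.03-fold), while most glycolysis genes did not pass (2 higher, 2 lower and 9 not passing of 13). The 2 higher became 1 without array 2, 3, 10, 11 or 12, and the 2 lower became 1 without array 1, 11 or 12 and 0 without array 2, 3 or 10. Of 16 genes of cholesterol synthesis and uptake 0 were higher and 5 lower (median -0.55); 3 fell without array 1 and 2 without array 2, 3, 10 or 11, and 1 rose without array 12. Msmo1, a sterol oxidase, read 8.93, 9.08 and 9.09 in sham and 7.26, 6.42 and 7.71 on day 5 (-1.90 ± 0.34, adjusted p = 0.00223), a call lost with averaged probe sets (adjusted p = 0.172).

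Ribosomal protein genes showed little change. Of 32 tested, 1 was higher, 0 lower and 31 did not pass, with a median of 0.15. The 1 was Rps25, at 1.91 ± 0.47, a call lost without array 2 (adjusted p = 0.0527); without array 1 there were 2 higher. Rpl10a, whose protein is the one tagged, read 13.59, 13.39 and 13.27 in sham and 13.53, 13.34 and 13.71 on day 5 (0.11 ± 0.18, adjusted p = 0.695). Genes of the secretory pathway, which loads collagen for export, held 6 higher, 3 lower and 21 that did not pass of 30 (median 0.26). Creb3l1, a membrane-bound transcription factor of secretory cells, read 9.31, 9.17 and 8.83 in sham and 10.35, 10.86 and 10.48 on day 5 (1.46 ± 0.28, adjusted p = 0.0037). Herpud1, of protein degradation at the endoplasmic reticulum, read 11.49, 12.14 and 11.80 in sham and 10.17, 10.32 and 10.43 on day 5 (-1.50 ± 0.25, adjusted p = 0.00149). The 6 were 3 without array 3 or 10, and the 3 were 5 without array 1 and 1 without array 10.

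Integrins and focal adhesion genes held 4 higher, 2 lower and 16 that did not pass of 22 (median -0.05), again shares near those of all genes. Itgb3, the beta 3 subunit, read 1.21, 5.19 and 5.06 in sham and 7.09, 8.85 and 7.69 on day 5 (4.06 ± 0.95, adjusted p = 0.00992, at least 8.89-fold), a call lost without the bright arrays (adjusted p = 0.0529). Itga5, the alpha subunit of the fibronectin receptor, read 7.99, 8.17 and 8.80 in sham and 10.89, 11.39 and 10.15 on day 5 (2.49 ± 0.31, 5.62-fold), a call lost with averaged probe sets (adjusted p = 0.248). Itga8, an integrin of kidney mesenchyme, fell from 10.52, 10.98 and 10.81 to 9.00, 8.68 and 9.67 (-1.65 ± 0.36, adjusted p = 0.00724), a call lost with averaged probe sets (adjusted p = 0.14). Tns1 of focal adhesions also fell (-1.33 ± 0.31), but not without the bright arrays (adjusted p = 0.0582). The count of those that rose was 2 without array 3 or 10. Among 13 annexins and S100 proteins 3 were higher, 1 lower and 9 did not pass (median 0.52), with 1 higher without array 2 or 3 and 0 lower without array 10. Among genes of vasoactive signalling Ptgfr and Npr1, receptors of prostaglandin F and natriuretic peptide, fell, from 7.51, 8.67 and 8.30 to 2.84, 6.74 and 3.35 (-3.85 ± 0.86, at least 8.45-fold lower) and from 8.87, 9.67 and 9.53 to 7.64, 7.32 and 5.58 (-2.51 ± 0.62, 5.7-fold lower; without the bright arrays adjusted p = 0.0712). The Ptgfr probe sets ran from -3.85 to -0.46. Ptger2, a receptor of prostaglandin E2, rose from 5.21, 5.45 and 5.15 to 7.64, 7.29 and 7.82 (2.31 ± 0.23, adjusted p = 5.21e-05). The other 15 of these 18 did not pass; without array 3 there were 2 higher.

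The unbound fraction of the same days changed in 1748 genes (10.4%), 1085 higher (6.44%) and 663 lower (3.94%). The first count was 609, 676, 527 and 654 without array 4, 5, 13 or 14, and the second 282, 310, 338, 256 and 302 without array 4, 5, 6, 13 or 14. Of the 2314 genes that rose in the bound fraction 754 (32.6%) also rose in the unbound one, which is 69.5% of the genes that rose there. Of the 1683 that fell 373 (22.2%) also fell in the unbound fraction, 56.3% of those that fell there. The called direction was opposite in 2 genes that were higher and 6 that were lower in the bound fraction. The change in the bound fraction differed from that in the unbound fraction for 3 genes (0.0178%), all with the bound change above the unbound one, and for 0 in the other direction, with limma. At an unadjusted p under 0.05 in limma there were 1355 and 1038. All 3 genes that passed rest in part on levels at or under the negative controls, so that their sizes are not measured. Kcnmb4, a beta subunit of the calcium-activated BK potassium channel, read 1.50, 1.19 and 1.58 in the sham bound fraction and 5.64, 5.21 and 5.06 on day 5 (at least 2.4-fold higher). Its unbound means fell from 3.24 on day 0 to 1.46 on day 5, both at or under the controls. Its fitted difference of 5.66 ± 0.56 (adjusted p = 0.00439) was 1.58 with levels set to at least the controls. Cenph, of the kinetochore, had sham means at or under the controls in both fractions, and its 3.35 ± 0.42 (adjusted p = 0.0207) became 1.24. The clone C130073F10Rik lay at or under them in all 4 groups, with an unbound mean that fell from 3.97 to 1.67. Its 3.75 ± 0.45 (adjusted p = 0.0184) became 0.75. Differences between list medians of the fractions, such as -2.05 and -0.23 for podocyte markers, therefore stand as descriptions. Col1a1 rose by 1.36 ± 0.19 on bound arrays and by 3.10 ± 0.19 on unbound ones (adjusted p of the difference = 0.059). The count of 3 was 6 without array 1, 5 without array 3 or 10, and 1 without array 4, 5, 6 or 15.

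**Figure D5:**
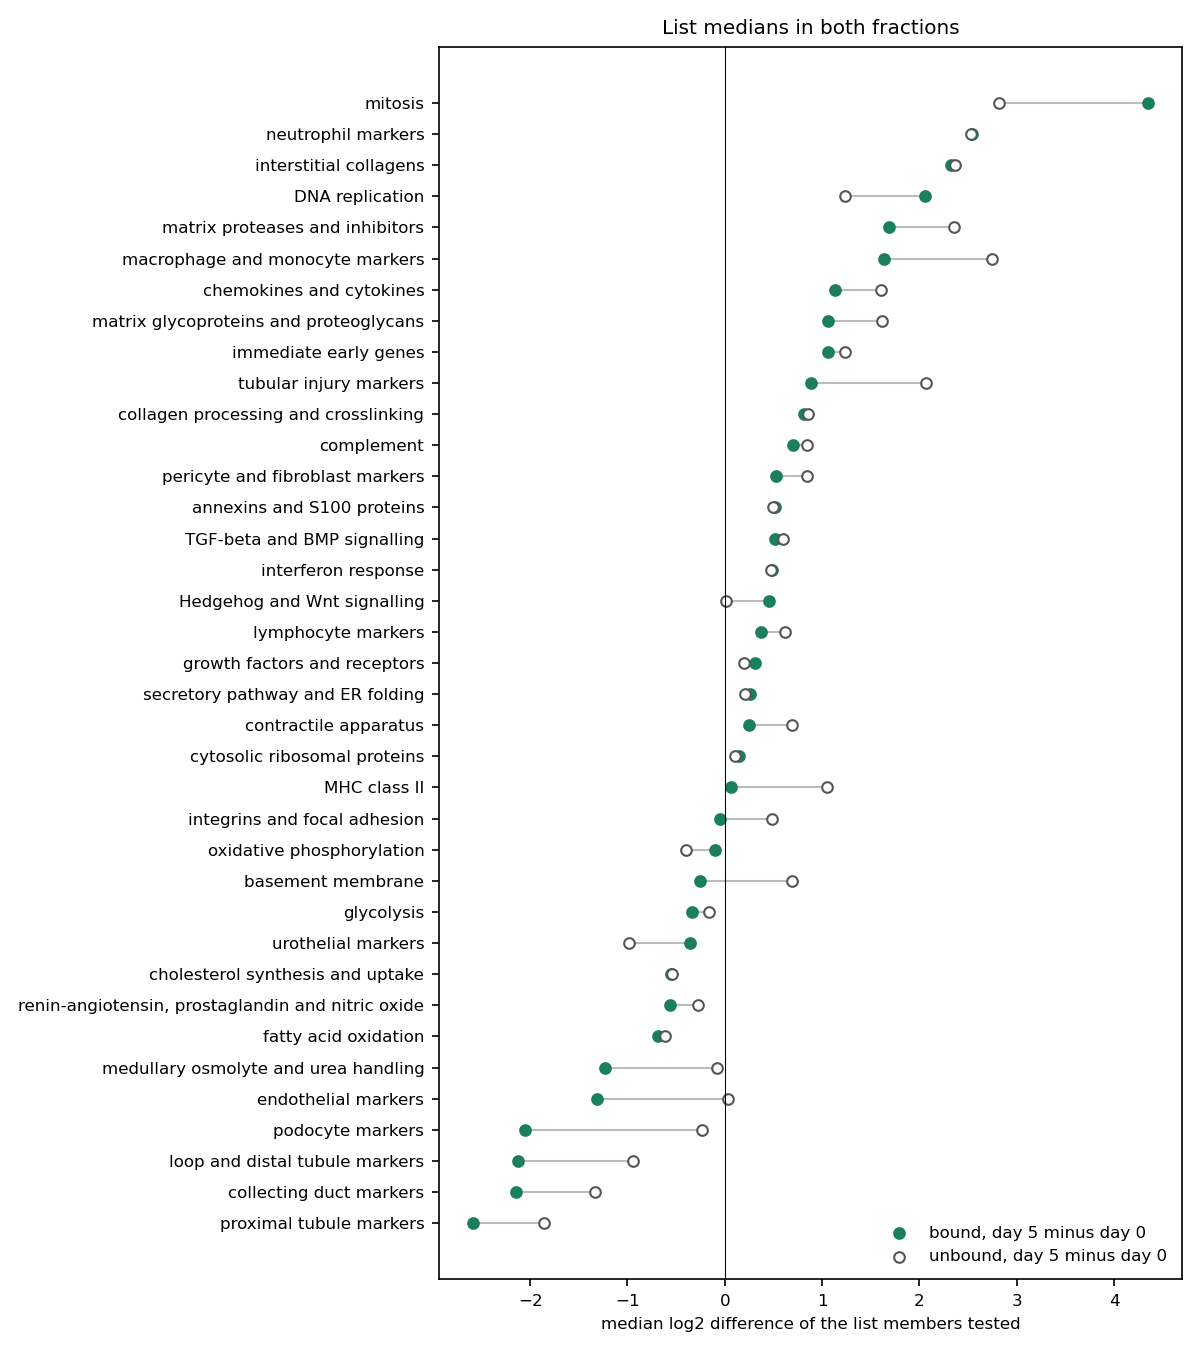
Median log2 difference, day 5 minus day 0, of the tested members of 37 gene lists (rows) in the bound fraction (filled) and the unbound fraction (open). Endothelial markers stand at -1.31 and 0.03, podocyte markers at -2.05 and -0.23, mitosis genes at 4.35 and 2.82, and interstitial collagens at 2.32 and 2.37.

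The bound fraction of day 2 shares its day 0 arrays with the comparison above, so only its values are set beside it. Between day 2 and day 0, 1560 genes (9.26%) passed, 944 (5.61%) higher and 616 (3.66%) lower, and between day 5 and day 2, 99 (0.588%) passed, 86 (0.511%) higher and 13 (0.0772%) lower. Timp1 read 12.76, 13.07 and 12.99 on the day 2 arrays, at the level of day 5. Havcr1 read 13.21, 11.39 and 12.57 and Lcn2 13.20, 12.11 and 12.70, with ranges that reach above day 5. Mitosis genes had a day 2 median of 4.13 against 4.35 on day 5. Fap read 6.07, 6.71 and 6.11, between day 0 and day 5 (4.46 ± 0.69 from day 2 to day 5, adjusted p = 0.0155). P4ha3 read 3.08, 5.54 and 4.86 (4.85 ± 0.69, adjusted p = 0.0103), and Lrrc15 1.79, 3.81 and 5.13 (5.44 ± 0.91, adjusted p = 0.0187). Cnn1 read 5.23, 6.27 and 6.50, near the higher sham arrays (3.90 ± 1.17, adjusted p = 0.15). Interstitial collagens had a median of 1.16 on day 2, with 10 of 17 higher, and podocyte markers a median of -1.13 with 1 of 10 lower. The day 2 arrays differed among themselves: array 7 kept Lrp2 at 10.68 while array 8 read 6.95.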

How the data were processed

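Polysomal RNA of 15 samples was amplified in 1 round, biotin-labelled and hybridised to single-colour arrays, per the labels. The authors deposited 1 intensity per probe set and array on a linear scale; how probes were summarised and scaled is not given in the sources used here. Their values enter as log2(intensity + 1), quantile normalized over the 15 arrays. Of 45037 probe sets besides 64 controls, 34945 had 1 gene, 932 several and 9160 none in the platform annotation, and a gene was read from its probe set of highest mean. Of 18161 genes, 16839 exceeded the 25th percentile on at least 3 arrays. A model with all 5 groups was fitted with limma 3.58.1 in R 4.3.3, with Benjamini-Hochberg adjustment over all tested genes, and was tested on simulated data. The floor of an array was the highest of its 27 negative-control probe sets. Figures were drawn with matplotlib 3.10.9 in Python 3.11.15.

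The genes named are a selection from the 12 highest and 12 lowest differences among genes that passed with non-overlapping arrays and no clone name, the 4 largest absolute differences of each list, a set of landmark genes, and up to 6 each way whose change differed between fractions; members that complete a count of 5 or fewer, and other list members given beside them as examples of genes that did not pass, were chosen after their values were seen. Members and all 37 lists (839 genes, 753 on the array, 751 tested) were chosen with earlier results of these data known. Alternatives were median centring, other filters, averaged probe sets, another pseudocount, fewer samples, other variance priors, array weights, brightness as a covariate and each array left out; the Y-linked mean as a covariate was chosen after seeing the data. Promoter windows came from the RefSeq table.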

Additional observations from a re-analysis of the deposited data

Results flagged for a closer look

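For 3 genes the day 5 minus day 0 change of the bound fraction differed from that of the unbound fraction at an adjusted p under 0.05 in limma. The difference of the changes was 5.663 log2 units for Kcnmb4, 3.752 for C130073F10Rik and 3.353 for Cenph. The sham bound and sham unbound means of all 3 lay at or under the negative controls, as did the day 5 unbound mean of Kcnmb4 and both day 5 means of C130073F10Rik. With such levels set to at least the controls the differences were 1.58, 0.75 and 1.24.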

How the results depend on the processing

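The bound comparison gave 2314 higher and 1683 lower genes. With arrays centred on their medians 1090 were lower, with only its 6 arrays 1118, with array weights 2707 (and 3449 higher), and without the 4 bright arrays 1273 were higher and 917 lower. Leaving out 1 array gave 1490 to 2039 higher and 957 to 1540 lower. With averaged probe sets 1833 genes were higher and 1324 lower, and 2764 of the 3997 calls (69.2%) were kept. Of the 3997 genes, 87 turned sign in that setting, so that the direction of some calls depends on the probe set. The difference between fractions gave 3 higher and 0 lower genes. It gave 1 higher with centring, 11 and 6 with a filter at the 50th percentile, 32 and 15 with a pseudocount of 16, 21 and 38 with a trended and robust prior, 1027 and 913 with array weights, and 1 to 6 higher and 0 to 1 lower without 1 array. The unbound comparison (1085 and 663) gave 639 higher with centring, 2855 and 2426 with array weights, 382 and 233 without the bright arrays, and 527 to 764 higher and 256 to 448 lower without 1 array. Leaving out an array was not run for the day 2 comparisons. Day 2 against day 0 (944 and 616) gave 305 and 207 without the bright arrays. Day 5 against day 2 (86 and 13) gave 6 lower with centring, 27 with the 50th percentile, 23 with averaged probe sets, 74 with the trended and robust prior, 190 and 50 with a pseudocount of 16, 20 and 2 with array weights, and 5 and 1 without the bright arrays. The cause of these shifts was not tested. Among values of named genes 2881 kept direction and side of the threshold, 7 turned sign without passing either way (Gli1, H2-Eb1, Ms4a1 and Pdgfra), 196 lost and 72 gained a call, and none reversed while called. Of list counts 1038 stayed within 1.5 times, 159 were smaller and 61 larger, and 525 list medians moved by less than 1 SD and 104 by more. Without the bright arrays the calls of Fgf2, Nphs1, Rps25, Slco1a1, Tagln and Umod were lost as well, with only the 6 bound arrays those of Col4a5, Fgf2, Nphs1, Tagln and Umod, and with array weights that of Nphs1. No paired analysis was possible because the labels number the arrays 1 to 15 across groups, so that groups share no replicate number. Levels near the negative controls limit the folds of genes that were not detected on one of the days.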
